A study of Solanum lycopersicum with 12 samples.

Results

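In tomato seedlings 24 h after flg22, 39 of the 43603 probes of the array were at least 1.5 higher on the log2 scale than in the control, while they had stayed within 1 of the control at 6 h of flg22 and were less than 1 above it at 24 h of the bacterial culture filtrate. They were chosen by the log2 differences between treatment and control means, and the rule also asked that both flg22 arrays lay above both control arrays at 24 h and that the probe was well above background on both flg22 arrays. Their differences at 24 h of flg22, at 6 h of flg22 and at 24 h of the filtrate are therefore a description and carry no test. Only the filtrate at 6 h was compared with the control without having been used by the rule. The probes were selected as late, but on inspection of each array the label of a difference at 24 h only held for some of them, since the 2 control arrays at 6 h differed strongly in most.

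Whole seedlings of Solanum lycopersicum that were 15 days old had been moved from plates to liquid MS medium and given flg22 at 1 µM, MBI600 CFCF, a culture filtrate freed of the cells of the bacterium MBI600, at 20% of the volume, or no elicitor. They were collected at 6 and 24 h, and RNA of pools of 2 seedlings was hybridized to 12 Agilent arrays, 2 for each of the 6 groups. The sample labels describe the control as water, whereas the methods describe LB with MS medium, and LB is not mentioned for flg22. A difference between flg22 and control therefore cannot be told apart from a difference in medium. No source used here says which independent experiment an array came from, and the spread between arrays may be partly technical.

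flg22 is a conserved stretch of bacterial flagellin that plants sense at the cell surface through the receptor kinase FLS2. Its binding sets off an oxidative burst, calcium influx and kinase cascades within minutes, and transcription factors of the WRKY and ERF families follow. Late products of this pattern-triggered immunity include pathogenesis-related proteins such as chitinases, and mitochondrial and redox enzymes are often among the genes that respond to stress in plants.

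On each array between 69.8% and 81.7% of the probes were well above background, none was saturated, and replicate arrays correlated at 0.970 to 0.993 over all probes. Of the 39 probes, 37 were well above background on all 12 arrays. The tissue label was checked with 56 probes of photosynthesis genes, which were all well above background on every array, as in green seedlings. Their median log2 intensity was from 13.70 to 15.09, and the lowest value belonged to control replicate 2 at 6 h, against 14.70 in control replicate 1 and 13.90 and 13.92 in both flg22 arrays at 6 h.

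The 39 probes carried 34 distinct sequence names, and 5 names were held by 2 probes each. Only 11 of the probes matched a gene of the RefSeq table, and they belonged to 8 genes. These were ER24, AOX1a, PTI5, CHI3 and ldh1, and 3 genes with a locus number only, LOC543825, LOC101265187 and LOC100736434. The other 28 probes are named here by the identifier on the array, without a gene name or a role. ER24 lies on chromosome 1, PTI5, CHI3 and LOC101265187 on chromosome 2, LOC100736434 on chromosome 6, and AOX1a, LOC543825 and ldh1 on chromosome 8. AOX1a and LOC543825 are direct neighbours in the order of the annotated genes.

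The difference at 24 h of flg22 was between 1.5 and 3.20 on the log2 scale, with a median of 1.72 over the 39 probes against -0.01 over all probes. Since whole seedlings were measured, more cells that express a gene and more RNA per cell cannot be told apart. The difference reached 2 or more, a 4-fold difference, in 10 of them. Of all probes, 0.42% were at least 1.5 above the control at 24 h of flg22 with both arrays higher, which is 183 probes. Of these 183, 89 were outside the limit at 6 h alone, 30 were at or over the limit for MBI600 CFCF alone, 25 were outside both, and 39 remained. The array medians of the 39 probes were 8.23 and 8.29 in the controls, 10.17 and 10.17 after flg22 and 8.93 and 8.82 after MBI600 CFCF at 24 h, whereas the median of all probes was 7.11 to 7.12 on every array. The plot of the 39 probes by array shows the flg22 arrays at 24 h above the controls in every row, which the rule required.

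**Figure D1:**
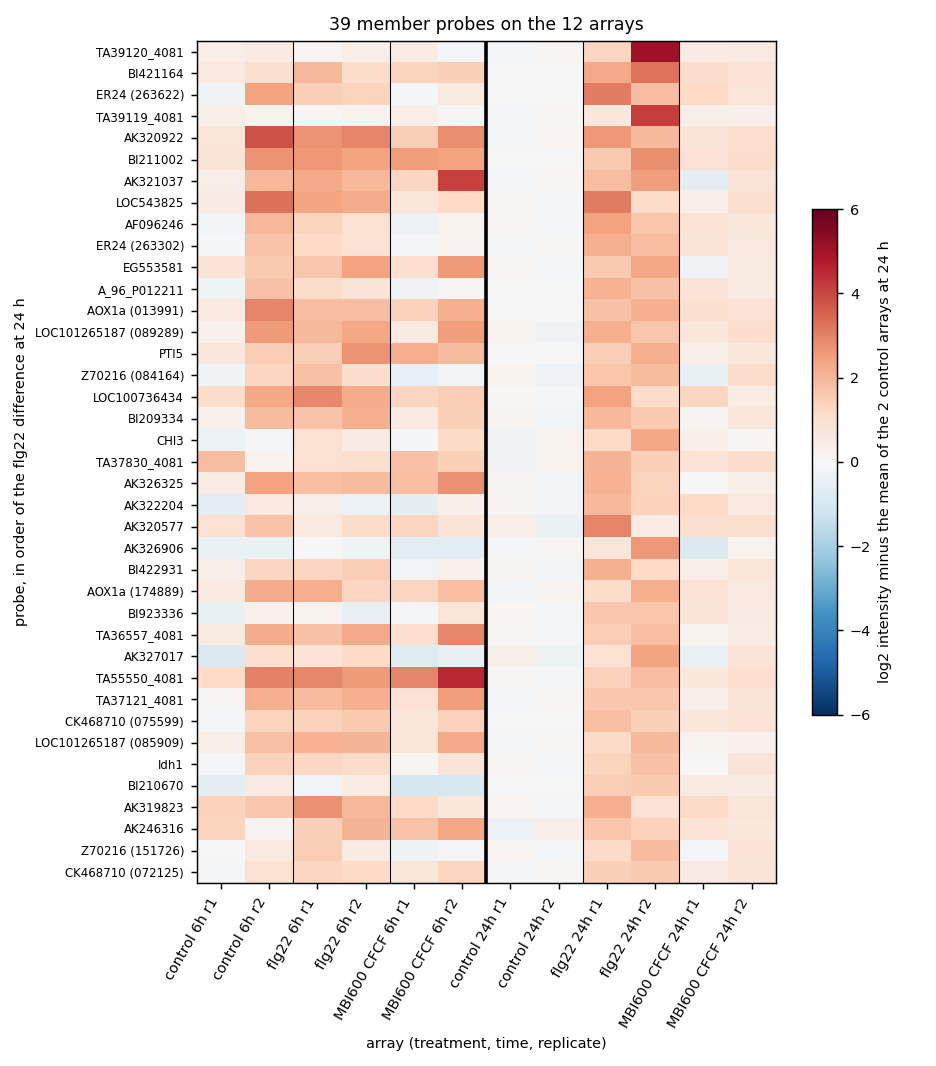
Log2 intensity of the 39 probes (rows, in order of the flg22 difference at 24 h) on the 12 arrays (columns), relative to the mean of the 2 control arrays at 24 h, with red above and blue below it. Control replicate 2 at 6 h is redder than control replicate 1 at 6 h in most rows, and TA39120_4081 and TA39119_4081 are dark in 1 of the 2 flg22 arrays at 24 h.

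Transcriptional regulators were represented by ER24 and PTI5. ER24 encodes a multiprotein bridging factor, a transcriptional coactivator described in tomato as responsive to ethylene, and both of its probes on the array were among the 39. The brighter ER24 probe (A_96_P263622) had log2 intensities of 8.70 and 8.77 in the controls at 24 h, 11.81 and 10.58 after flg22 and 9.92 and 9.47 after MBI600 CFCF. The other (A_96_P263302) had 8.14 and 8.29 in the controls, 10.36 and 10.09 after flg22 and 9.0 and 8.82 after MBI600 CFCF. In both probes the 3 treatments did not overlap at 24 h, with MBI600 CFCF between control and flg22. The rule required flg22 above the control and largely fixed its place above MBI600 CFCF. MBI600 CFCF lay above both controls in 29 of the 39 probes, so this order is not particular to ER24. The differences of flg22 from control were 2.46 ± 0.75 and 2.01 ± 0.48 (log2, SE of the fit, n = 2 arrays per group), which are 5.5-fold and 4.02-fold.

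At 6 h the brighter ER24 probe read 8.54 and 11.14 in the controls, 10.17 and 10.07 after flg22 and 8.60 and 9.26 after MBI600 CFCF. The flg22 arrays lay between the 2 control arrays. Against control replicate 1 the difference at 6 h of flg22 was 1.58, and against control replicate 2 it was -1.02. For the second ER24 probe these were 1.16 and -0.68. The sign of the difference at 6 h thus depended on the control array.

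A pair of unnamed probes followed ER24 closely. A_96_P012211, which has no sequence name, differed from the second ER24 probe by at most 0.15 on any of the 12 arrays (Pearson's r = 0.996 over the arrays), and AF096246 by at most 0.73 (r = 0.986). The arrays share treatments and slides, and these likenesses were chosen after the values had been seen. A_96_P012211 was 1.92 and AF096246 2.04 above the control at 24 h of flg22. It cannot be told here whether these probes read the same transcript as ER24.

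PTI5 encodes an ERF transcription factor that was found in tomato as a partner of the Pto kinase and binds the GCC box of pathogenesis-related genes. Its probe was dim in the controls at 24 h, with 6.29 and 6.22, and read 7.75 and 8.44 after flg22 and 6.63 and 6.90 after MBI600 CFCF. The difference at 24 h of flg22 was 1.84 ± 0.42 (SE, n = 2 per group), 3.58-fold. At 6 h PTI5 read 6.94 and 7.73 in the controls, 7.71 and 8.94 after flg22, and 8.45 and 8.18 after MBI600 CFCF. Its mean difference at 6 h of flg22 was 0.99, just inside the limit of 1, and the levels of PTI5 after flg22 overlapped between 6 and 24 h. By quantitative PCR, the paper reports transcripts of this gene above the control at every time, after the filtrate and after the flagellin peptide. At the last time its estimate was higher for the filtrate. In the array probe flg22 was the higher of the 2 at 24 h. A rise of PTI5 that is late or limited to flg22 is therefore not claimed from this probe.

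CHI3 encodes an acidic chitinase, a pathogenesis-related enzyme that cleaves the chitin of fungal walls. The CHI3 probe among the 39 (A_96_P077989) read 7.23 and 7.63 in the controls at 24 h, 8.61 and 9.73 after flg22, and 7.72 and 7.55 after MBI600 CFCF. The flg22 arrays were the highest of all 12, and the difference was 1.75 ± 0.45 (SE, n = 2 per group). In this probe the level with MBI600 CFCF overlapped the control at 24 h.

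Another 3 probes carry the same CHI3 sequence name, and none of them was among the 39. They were brighter, between 9.56 and 10.48 in the controls at 24 h, and were 2.31, 2.56 and 2.87 above the control at 24 h of flg22. At 6 h of flg22 they were 1.17, 1.20 and 1.23 above the control, just past the limit, whereas the CHI3 probe that met the rule was at 0.95. At 24 h of MBI600 CFCF these 3 probes were 0.66, 0.77 and 0.88 above the control, and in each of them both arrays lay above both controls. The limit at 6 h thus passed between probes of 1 gene.

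Enzymes of respiration and fermentation made up the other named genes. AOX1a encodes the mitochondrial alternative oxidase, which passes electrons to oxygen without the later proton-pumping steps of the respiratory chain. Its probe A_96_P013991 read 8.70 and 8.78 in the controls at 24 h, 10.48 and 10.85 after flg22 and 9.69 and 9.6 after MBI600 CFCF. The second AOX1a probe (A_96_P174889) read 8.66 and 8.98 in the controls, 9.92 and 11.01 after flg22 and 9.67 and 9.42 after MBI600 CFCF. The groups did not overlap at 24 h, and flg22 was above MBI600 CFCF in both probes, an order that the rule largely fixes. The differences of flg22 from control were 1.92 ± 0.62 and 1.65 ± 0.56 (SE, n = 2 per group).

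After flg22 the levels of AOX1a at 6 and 24 h overlapped. At 6 h the first probe read 9.32 and 11.65 in the controls and 10.58 and 10.60 after flg22, so both controls at 24 h lay below both controls at 6 h while the flg22 arrays stayed in the same range. Another AOX1a probe, which was not among the 39, was 1.1 above the control at 24 h of flg22.

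LOC543825, the neighbour of AOX1a, read 7.10 and 6.93 in the controls at 24 h, 10.12 and 8.14 after flg22 and 7.41 and 7.96 after MBI600 CFCF. The difference was 2.11 ± 0.87 (SE, n = 2 per group), and the 2 flg22 arrays were far apart. At 6 h the controls read 7.51 and 10.30 and the flg22 arrays 9.39 and 9.24. The other probe of LOC543825 was 1.01 above the control at 24 h of flg22.

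ldh1 encodes lactate dehydrogenase, which turns pyruvate into lactate in fermentation. It read 9.48 and 9.23 in the controls at 24 h, 10.67 and 11.13 after flg22, and 9.40 and 10.12 after MBI600 CFCF. The flg22 arrays lay above both others, an order that the rule largely fixes. The difference from control was 1.55 ± 0.47 (SE, n = 2 per group), while MBI600 CFCF overlapped the control. At 6 h the controls read 9.23 and 10.73 and the flg22 arrays 10.61 and 10.46.

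**Figure D2:**
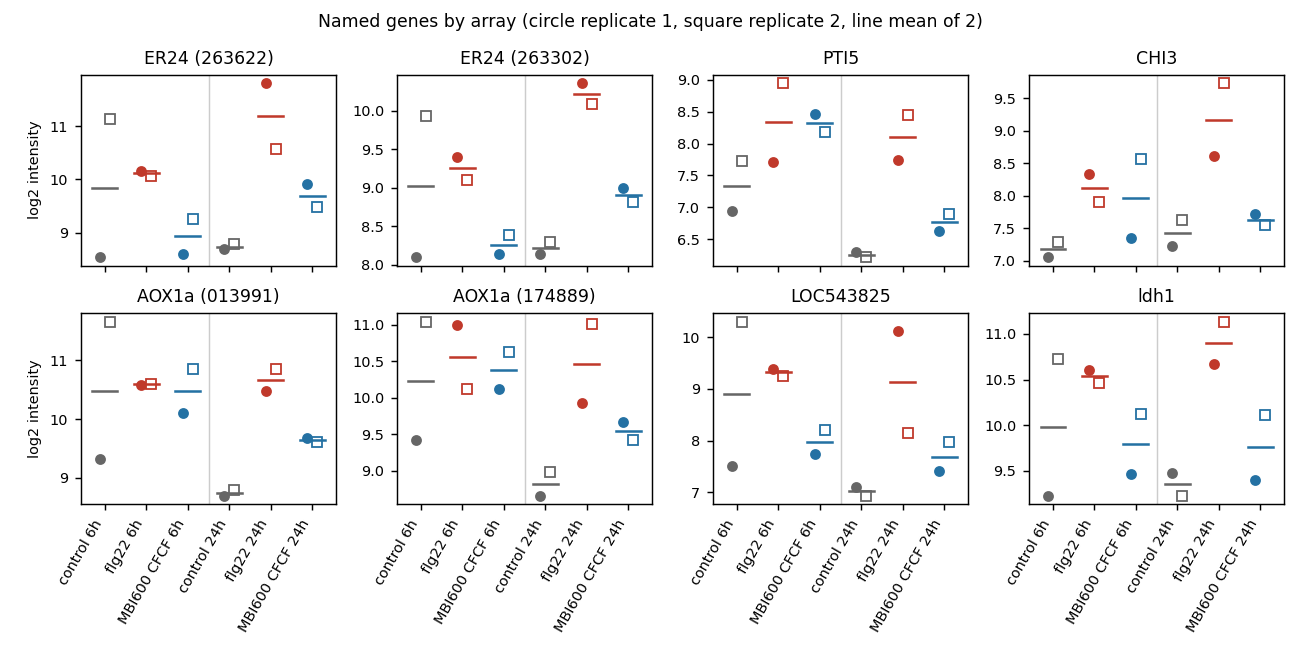
Log2 intensity of 8 probes of the named genes and LOC543825 by treatment and time, with a circle for replicate 1, a square for replicate 2 and a line for their mean. At 24 h flg22 is above the control in each panel, which the rule required. At 6 h the control replicates are apart by 1.5 to 2.79 in the ER24, AOX1a, LOC543825 and ldh1 panels but by 0.79 and 0.23 in those of PTI5 and CHI3.

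Of the 4 largest differences at 24 h, 1 was that of ER24 and 3 belonged to probes without a gene name, which were not equally high on both arrays. TA39120_4081 read 6.59 and 6.86 in the controls and 8.03 and 11.82 after flg22, a difference of 3.20 ± 0.96 (SE, n = 2 per group). TA39119_4081 read 5.95 and 6.21 in the controls and 6.70 and 10.20 after flg22, a difference of 2.38 ± 0.88. Both were much higher in flg22 replicate 2 than in replicate 1, and their values ran together over the 12 arrays (r = 0.993). Without flg22 replicate 2 at 24 h the differences were 1.30 and 0.63. TA39119_4081 was also well above background on only 1 of the 2 control arrays at 24 h.

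BI421164 was far above the control on both flg22 arrays, although these differed by 1.01, with 7.11 and 7.04 in the controls at 24 h and 9.33 and 10.34 after flg22, a difference of 2.76 ± 0.36 (SE, n = 2 per group). The difference was 2.28 for AK320922, 2.2 for BI211002, 2.19 for AK321037 and 1.95 for EG553581. In these 4 the mean of the flg22 arrays at 6 h was 1.20 to 2.05 above control replicate 1 at 6 h, and between -1.03 and 0.43 relative to control replicate 2. AK320577 behaved the other way from TA39120_4081, with 11.45 in flg22 replicate 1 and 8.99 in replicate 2 against controls of 8.93 and 8.13, and its difference was 0.46 without replicate 1. It was singled out after its values had been seen.

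Over the 39 probes the 2 flg22 arrays at 24 h differed by 1 or more in 13, against 6.95% of all probes. With flg22 replicate 1 left out 10 of the 39 were under 1.5, with replicate 2 left out 14 did, and 15 stayed at 1.5 or more in either case. The arrays lay on 3 slides, and 2 of the slides held flg22 and control arrays of 24 h. Within the first slide the median difference was 1.77 (0.61 to 3.11) and within the second 1.86 (0.86 to 4.96), and 33 of the 39 were at 1 or more within both.

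The values nearest to the threshold show how the list ends. CK468710 (A_96_P072125) and Z70216 (A_96_P151726) were the last inside, at 1.502 and 1.513. TA52484_4081 and a probe of NAC1, a transcription factor of the NAC family, met the rest of the rule and were left out at 1.496 and 1.495. The nearest values at the limit for 6 h of flg22 were 0.99 inside and 1.02 outside, and at the limit for MBI600 CFCF 0.97 inside and 1.01 outside.

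At 6 h of flg22 the 39 probes were between -0.47 and 0.99 of the mean of the controls, with a median of 0.59, and 33 were above 0. The limit rested on control replicate 2. Its array median over the 39 probes was 10.30, against 8.85 in control replicate 1 and 9.57 and 9.62 after flg22. Control replicate 2 was at least 1 above replicate 1 in 24 of the 39, while this held for 2.12% of all probes. The rule used these arrays, and a high control at 6 h helps a probe to meet it, so the share is not independent of the rule.

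Against control replicate 1 alone, flg22 at 6 h was 1 or more higher in 28 of the 39 (2.54% of all probes), with a median of 1.31. Against control replicate 2 alone it was so in 1 probe, with a median of -0.13. Only 11 of the 39 stayed within the limit against replicate 1 alone, and 35 against replicate 2 alone. The median of the photosynthesis probes, 13.70 in control replicate 2 and 14.70 in replicate 1, moved with this difference, and its part in the result was not tested.

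**Figure D3:**
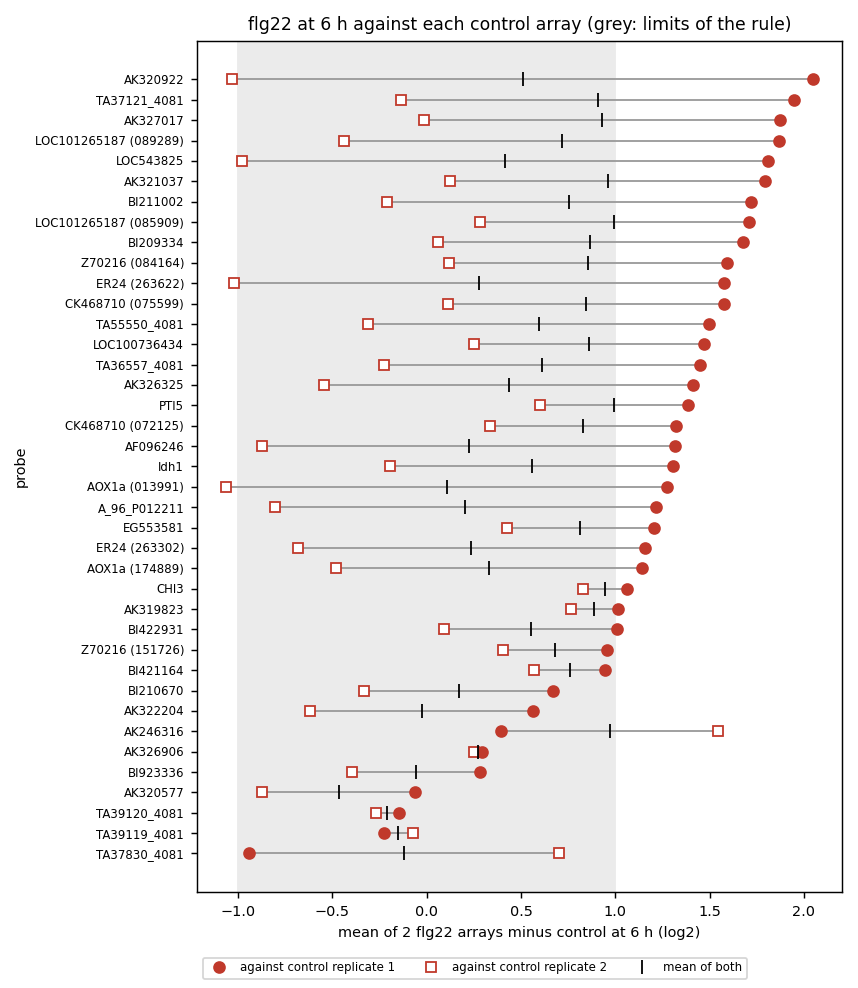
Mean of the 2 flg22 arrays at 6 h minus control replicate 1 (filled circles) and minus control replicate 2 (open squares) for each of the 39 probes on the log2 scale, with the mean of both as a tick and the limits of -1 and 1 in grey. Of the filled circles 28 are at 1 or more, and of the open squares 1 is.

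The change over time was also read within each treatment. From 6 to 24 h the median change in the control was -1.04 over the 39 probes, and the control was lower on both arrays at 24 h than on either at 6 h in 23 of them (16.5% of all probes). In flg22 the median change from 6 to 24 h was 0.27, and both arrays at 24 h were above both at 6 h in 15 of the 39 (13.6% of all probes). It was 1 or more in 9. The rule used the control means at both times and favours probes with low controls at 24 h and high controls at 6 h, so these counts are a description of the list.

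The 24 probes in which control replicate 2 was high at 6 h included ER24, AOX1a, LOC543825, LOC101265187, LOC100736434 and ldh1. Their median change in flg22 from 6 to 24 h was -0.02. The other 15 included CHI3 and PTI5, and in them it was 0.80. This split was made after the values had been seen and used the 6 h controls, so it is a description of the list.

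In 11 of the 39 probes both flg22 arrays at 24 h were the highest of all 12 arrays, against 0.681% of all probes, a count that the rule favours. They were TA39120_4081, TA39119_4081, BI421164, the second ER24 probe, A_96_P012211, CHI3, AK322204, AK326906, BI923336, BI210670 and CK468710 (A_96_P072125). BI923336 and BI210670 had nearly the same value on both flg22 arrays. BI923336 read 10.10 and 10.17 after flg22 at 24 h and at most 9.28 on any other array, and BI210670 read 9.52 and 9.62 after flg22 and at most 8.58 elsewhere. With control replicate 2 at 6 h left out, 14 probes had flg22 at 24 h above all others (0.816% of all probes), among them the brighter ER24 probe, AF096246 and ldh1.

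Other probes that share a sequence name with one of the 39 were looked up. There were 30 of them on 12 names, and all 30 were above the control in the mean at 24 h of flg22, with a median of 1.12. Of these, 19 were at 1 or more (1.19% of all probes) and 9 at 1.5 or more. They were measured on the same arrays under the same names as the probes of the rule, so the counts describe how far probes of 1 name differ and are no independent support. LOC100736434 had 6 further probes, which were 0.87 to 1.98 above the control at 24 h of flg22 and were all past the limit at 6 h, with 1.11 to 1.34, while the probe of the rule stood at 0.86. For CHI3 and LOC100736434 the choice of probe therefore decided whether the gene appeared as late. AK246316 had 3 further probes, which were 1.03, 1.23 and 1.18 above the control at 24 h of MBI600 CFCF. These were past that limit, while the AK246316 probe of the rule stood at 0.71.

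**Figure D4:**
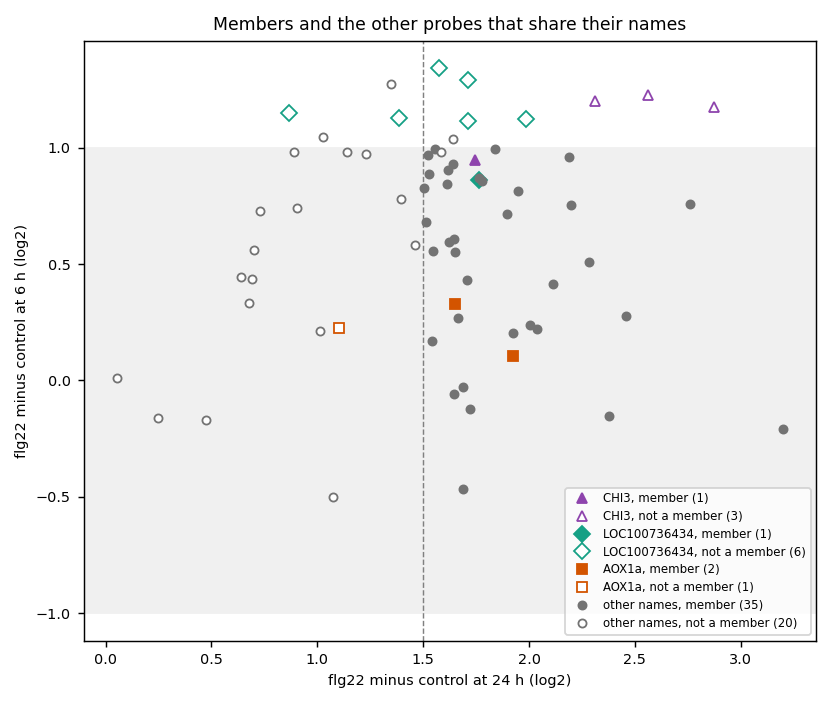
Difference of flg22 from control at 24 h (x axis, log2) and at 6 h (y axis, log2) for the 39 probes (filled) and the 30 other probes of the same names (open), with the limits of the rule as the grey band and the dashed line. The open symbols of CHI3 and LOC100736434 lie above the limit of 1 at 6 h.

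MBI600 CFCF at 24 h was used by the rule only as an upper limit. The 39 probes were between -0.34 and 0.97 above the control, with a median of 0.65 against -0.01 over all probes, and 38 of the 39 were above 0. Both MBI600 CFCF arrays were above both controls in 29 of the 39, against 24.2% of all probes. AK326906 was the exception below 0, at -0.34. Both flg22 arrays were above both MBI600 CFCF arrays at 24 h in 36 of the 39 (16.3% of all probes). The rule largely fixes this count, since it set a lower limit for flg22 and an upper limit for MBI600 CFCF against the same controls, and nothing is read from it. The difference of MBI600 CFCF from control shares the control arrays with that of flg22, and the low values of the controls at 24 h enter both. Within the only slide that held both groups, the median was 0.54, and with slide as a term it was 0.29.

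At 6 h of MBI600 CFCF, the comparison that the rule did not use, none of the 39 probes passed the test. The median difference was -0.05, between -0.99 and 1.6, with 18 of the 39 above 0. None of the 39 was called at an adjusted p under 0.1 and a log2 difference of 2 (limma, Benjamini-Hochberg over all probes), as none of all probes was (0%), and the adjusted p of the 39 was from 0.949 to 1.00. At an unadjusted p under 0.05, 3 were higher (1.34% of all probes) and 1 was lower (1.22%). Both arrays were above both controls in 4 of the 39 (13.9% of all probes) and below both in 5 (15.6%). The control arrays at 6 h are the same ones that set the limit for flg22.

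The 3 largest rises were those of TA55550_4081 (1.6 ± 0.63, SE, n = 2 per group, limma adjusted p = 0.949), AK321037 (1.52 ± 0.90, same adjusted p) and AK246316 (1.27 ± 0.42, same adjusted p). TA55550_4081 read 8.87 and 10.69 in the controls and 10.57 and 12.18 after MBI600 CFCF, which overlap. AK246316 read 9.47 and 8.32 in the controls and 9.86 and 10.46 after MBI600 CFCF, without overlap. The 3 largest falls were those of BI210670 (-0.99 ± 0.31), AF096246 (-0.97 ± 0.61) and LOC543825 (-0.93 ± 0.87), each with a limma adjusted p of 0.949. BI210670 read 7.49 and 8.50 in the controls and 6.97 and 7.04 after MBI600 CFCF, without overlap. The PTI5 probe differed from the control by 0.98 ± 0.42 and the CHI3 probe among the 39 by 0.79 ± 0.45 at 6 h of MBI600 CFCF, and the arrays of both probes did not overlap with the controls, although neither passed the test (limma adjusted p = 0.949). In A_96_P231339 and A_96_P248492, which also carry the CHI3 name, they overlapped, whereas in A_96_P000486, the remaining CHI3 probe, they did not.

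The sign at 6 h turned with the control array. Against control replicate 1 the median over the 39 probes was 0.69 and against replicate 2 it was -0.66. Within the slide of control replicate 1 it was 0.26, and within the slide of control replicate 2 it was -0.32. With 2 arrays per group, a shared rise or fall at 6 h of MBI600 CFCF could not be detected apart from the spread of the controls.

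**Figure D5:**
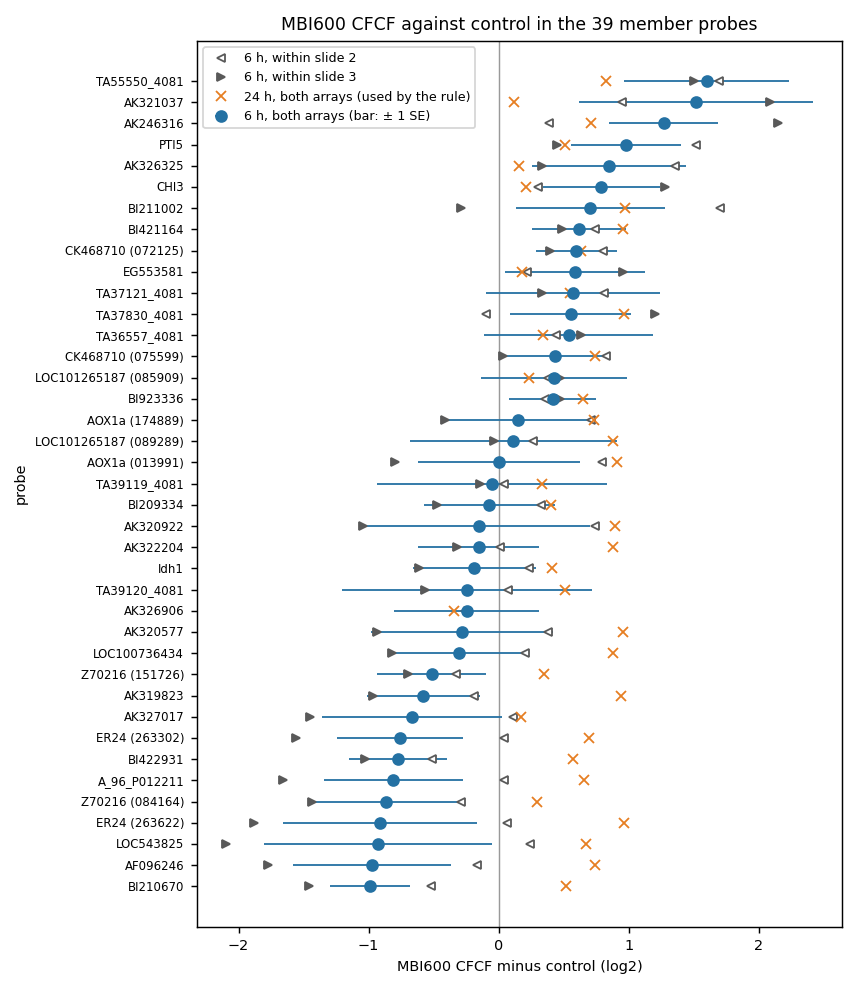
Difference of MBI600 CFCF from control for the 39 probes on the log2 scale, at 6 h over both arrays (circles, with bars of 1 SE), at 6 h within each slide (triangles) and at 24 h (crosses). The 6 h values run from -0.99 to 1.6 around a median of -0.05, and 38 of the 39 crosses are above 0.

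The 39 probes were set beside 6 lists of defence and control genes. Of 46 probes of salicylate and pathogenesis-related genes, 1 was among the 39, that of CHI3, and the median of the list at 24 h of flg22 was 1.01. Of 52 probes of ethylene synthesis and response, 1 was among the 39, that of PTI5, and the median was 0.07. The 47 jasmonate and wound probes, the 29 probes of phenylpropanoid and amide synthesis and the 36 probes of flagellin perception held none of the 39, with medians of 0.16, 0.65 and 0.10 at 24 h of flg22. The median of the 56 photosynthesis probes was -0.22. Absence from the 39 does not mean that a list was unchanged at 24 h of flg22. The difference was 1 or more in 12 jasmonate and wound, 23 salicylate, 8 phenylpropanoid, 4 ethylene, 0 flagellin perception and 0 photosynthesis probes (1.19% of all probes). These are counts of probes, and genes such as TD2 and CHI3 had several among them. Some of the probes lay outside the limit at 6 h, such as a TD2 probe of the jasmonate list (A_96_P034156) with 3.52 at 24 h and 5.68 at 6 h. Others were past the limit for MBI600 CFCF, such as a PR1b1 probe of the salicylate list (A_96_P015471). It was 3.12 above the control at 24 h of flg22 and 4.51 at 24 h of MBI600 CFCF. In no list did a probe reach an adjusted p under 0.1 in either direction at 24 h of flg22 or at 6 h of MBI600 CFCF (limma), while over all probes 3 did so upwards at 24 h of flg22 (0.00688%).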

How the data were processed

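The scans hold a green and a red intensity per spot with local background, in files deposited without normalization by the authors (Agilent Feature Extraction 10.7.3.1). The deposited table gives the log2 green intensity that the authors made by normexp (offset 50) and quantile normalization, and a recomputation from the scans differed by at most 5e-09. For the red channel, the content was not given in the sources used. Among the results given here, its values entered the dual-channel alternative only. The 43803 spots that are not controls were averaged to 43603 probes. Outlier spots were left out of the fit, which left 5 probe values missing.

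The rule was applied to the deposited table. A mean per group was fitted over all 12 arrays with limma 3.58.1 (R 4.3.3), with empirical Bayes and Benjamini-Hochberg adjustment over all probes. SE is that of the fit. Called means an adjusted p under 0.1 and a log2 difference of 2 or more. The fit was also run on simulated data in which a probe had the same spread in every group. That setting lacks the split between the controls at 6 h, so nothing is read from it.

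Named were the 12 largest differences at 24 h of flg22, every probe with a gene symbol, those nearest to the threshold, the 3 largest rises and falls at 6 h of MBI600 CFCF, and members of the lists. AK320577, AK326906, AK322204, BI923336, LOC100736434 and LOC101265187 were named after their values had been seen. The rule, the lists and the tests were chosen with earlier results of these data known. Names came from RefSeq (SLM_r2.1), which matched 4884 probes to 2232 of 41476 genes. Arrays were few, which limits the precision. No sequences of the probes were used.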

Additional observations from a re-analysis of the deposited data

Results flagged for a closer look

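In 3 of the 39 probes MBI600 CFCF lay below both controls at 6 h and above both at 24 h on every array, which is the case with opposite directions in 10.1% of all probes. The change of the difference from 6 to 24 h was 1.35 for BI422931 (-0.77 at 6 h, 0.57 at 24 h), 1.51 for BI210670 (-0.99 and 0.52) and 1.51 for AK319823 (-0.58 and 0.94). The interaction of treatment and time in limma gave an adjusted p of 0.620 for each, so the difference between the times did not pass the test. An unadjusted p under 0.05 was found for these 3 of the 39 and for 6.1% of all probes. Their values at 24 h had been used by the rule.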

How the results depend on the processing

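The number of probes that met the rule depended on the processing. It was 88 when the signal processed by the scanner was scaled to its 75th percentile, of which 17 were among the 39, and 30 to 53 with the other signal and scaling alternatives. It was 89 at a lower threshold for 24 h of flg22 and 10 at a threshold of 2. With 1 array left out it was between 11 and 112, with 11 without control replicate 2 at 6 h, 59 without control replicate 1 at 6 h, and 74 and 112 without flg22 replicates 1 and 2 at 24 h. The reading of 6 h of flg22 against each control array alone was added after seeing the data. The median at 24 h of flg22 was 2.13 with the processed signal and from 1.68 to 1.86 with 1 array left out. The median at 6 h of flg22 was from -0.13 to 1.31 with 1 array left out, and that at 6 h of MBI600 CFCF from -0.66 to 0.69. The median at 24 h of MBI600 CFCF was 0.29 with slide as a term and from 0.56 to 0.71 with 1 array left out. No probe of the 39 was called at 6 h of MBI600 CFCF under any alternative that kept the adjusted p, and 4 had an unadjusted p under 0.05. The count of probes with both MBI600 CFCF arrays above both controls at 6 h was 5 to 28 with 1 array left out (28 without control replicate 2, 14 without MBI600 CFCF replicate 1). That with flg22 at 24 h above every other array, an alternative added after seeing the data, was 11 to 17. Leaving an array out makes both conditions easier to meet. The share over all probes was not computed at these settings, so nothing is read from these counts. Without control replicate 2 at 6 h the falls of AF096246 and LOC543825 at 6 h of MBI600 CFCF turned to 0.12 and 0.46, and without control replicate 1 they were -2.07 and -2.32. The 22 probes chosen by the rule for names stayed above the control at 24 h of flg22 under each of the 264 combinations of probe and setting (0.63 to 5.10). The rule largely fixes this sign, since both flg22 arrays had to lie above both controls. Leaving 1 array out could therefore not turn it, and nothing is read from the count. Replicate numbers are shared between groups, and deviations of arrays with the same number correlated from -0.51 to 0.66 (over 0.1 in 9 of 15 pairs of groups), so no pairing was assumed. With the replicate block the medians remained 1.72 at 24 h of flg22, 0.59 at 6 h of flg22, and for MBI600 CFCF -0.05 at 6 h and 0.65 at 24 h, with 0 called.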
